A study of Mus musculus with 2 samples.

Results

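Desmosomes are spot-like junctions that tie neighbouring epithelial cells together and anchor their keratin filaments. Their adhesive proteins are 2 families of cadherins, the desmocollins (Dsc) and the desmogleins (Dsg). Inside the cell these bind the armadillo-repeat proteins plakoglobin (Jup) and plakophilins (Pkp), which bind desmoplakin (Dsp), the link to keratin. In the epidermis the isoforms change as cells leave the basal layer, and in the outermost living layers corneodesmosin (Cdsn) is added to the junction, which is later cut by proteases when dead cells are shed. The epidermis is rich in desmosomes, and cortical neurons are not known for them.

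The desmosomal set held 10 genes, Dsc1, Dsc2, Dsc3, Dsg1a, Dsg2, Dsg3, Dsp, Jup, Pkp1 and Cdsn. Across the array, 18193 genes had at least 1 probe set that named no other gene. Every probe set that named exactly 1 gene, that gene being one of the 10, was taken, which gave 19 of 34945 single-gene probe sets. Dsg3 is not analysed here, since no single-gene probe set carried its name, so 9 of the 10 had values. The genes were chosen by role, but on a data set whose log2 differences between the arrays were already known, and all differences below are therefore descriptions, with no test. Dsc1, Dsg1a, Cdsn and Pkp1 were treated as suprabasal (of the layers above the basal one), and Dsc2, Dsc3, Dsg2, Dsg3, Dsp and Jup as basal or broadly expressed.

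The RNA came from 2 mouse embryos of 1 litter at stage E17.5, late in gestation, with C57BL/6 and 129 ancestry, from a mating of Sox11 heterozygotes. One embryo was wild type and the other lacked Sox11, a transcription factor gene (Sox11(-/-)). Total RNA of the dissected cerebral cortex of each embryo was hybridised to 1 Affymetrix mouse array, so each genotype is 1 animal and no error between animals can be given. The series asks which genes of the cortex differ without Sox11. The sources used here do not say how the null allele was made. Signals below are given in the order wild type, then null, on the linear scale of the deposited table.

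The libraries differed in more than the labelled genotype. All 6 Sox11 probe sets were lower in the null library, at 16.4% to 47.8% of the wild-type signal. Xist, the RNA of the inactive X chromosome, was at 17505 and 155, so sex and genotype cannot be told apart. The 3' to 5' signal ratio, which reflects RNA integrity, was 1.78 and 1.16 for beta-actin and 0.922 and 0.816 for Gapdh. Skeletal muscle genes, which cortex should lack, had a similar summed signal in both, 119675 and 119880 over 7 genes. The sum over 6 cortical neuron genes was 16123 and 14981. Other tissue content differed: the null sum was 35.1% of wild type for suprabasal keratins, 31.7% for inner root sheath and 57.9% for salivary gland genes. For basal keratins it was 99.6%. The part of these features in the results below was not tested.

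Most desmosomal members had less signal in the null library than in wild type. All 9 members with a probe set were measured, meaning that at least 1 array reached its own median signal (178 and 177). Of these 9, 6 were at least 1.5-fold lower (Dsc1, Dsg1a, Jup, Dsc3, Dsp and Pkp1), and none was 1.5-fold higher. Among all 12390 measured genes 3.24% were 1.5-fold lower and 3.07% were 1.5-fold higher. The 2-fold line was passed by Dsc1 and Dsg1a, against 0.985% of measured genes lower by 2-fold. The difference was below 0 for 8 of the 9, against 50% of measured genes, a share that the centring of the arrays sets. The median over the 9 members was -0.83 on the log2 scale (null minus wild type, after shifting the null array so that the median over measured genes was 0). In whole-tissue RNA, fewer cells of a type and less RNA per cell cannot be told apart.

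**Figure D1:**
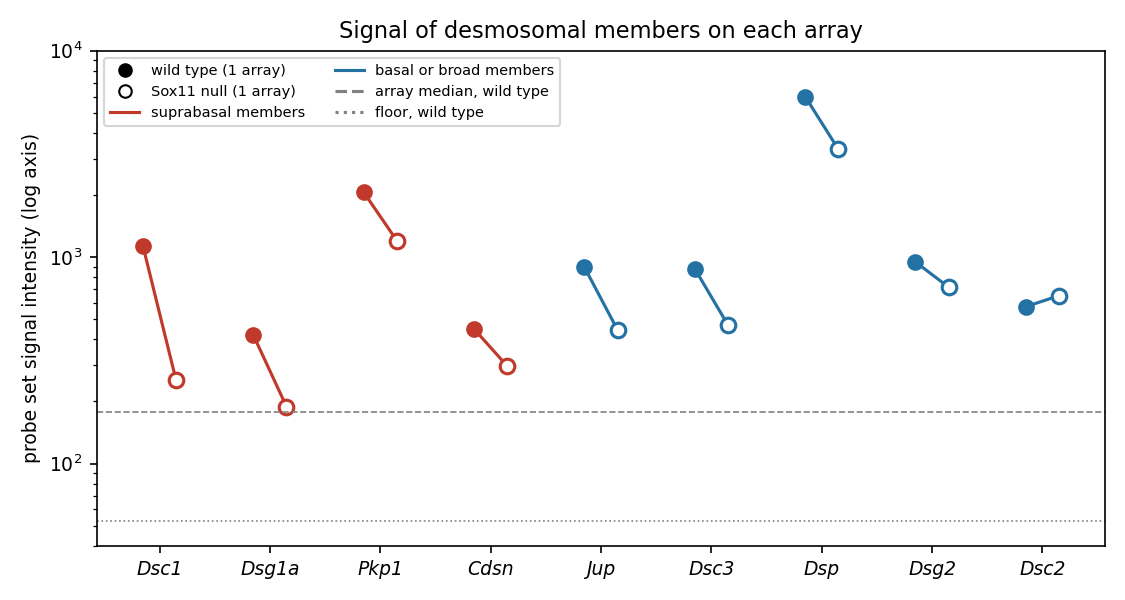
Probe set signal intensity (log axis) of 9 members, each by its brightest probe set, in wild type (filled) and Sox11 null (open), 1 array each. Every line falls from left to right except that of Dsc2 (576 and 651), and the steepest is that of Dsc1 (1130.4 and 253).

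The desmocollins, one family of the adhesive cadherins, went different ways. Dsc1, the desmocollin of the upper epidermal layers, had a signal of 1130.4 and 253 with its brightest probe set, 1456203_at. That is 4.40-fold lower, a log2 difference of -2.14, and 13 of the 12390 measured genes, Dsc1 among them, were as low or lower. Its other probe set, 1421460_at, was at 27.8 and 19.7, under the floor of 52.9 and 52.5 below which signals were not ordered, so it gives no fold. The Dsc1 difference thus rests on 1 probe set.

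Dsc3, the desmocollin of the basal and lower layers, was at 878 and 469.6 with 1434534_at. This was 1.84-fold lower (log2 difference -0.88). A second Dsc3 probe set, 1427637_a_at, was below the median of both arrays at 91.7 and 88.7 and differed by -0.028. Dsc2, the desmocollin that is also found in simple epithelia and heart muscle, was the only member with a positive difference. Its brightest probe set, 1426911_at, was at 576 and 651 (0.20), and 1421156_a_at was at 191 and 323 (0.78). Both probe sets of Dsc2 were therefore higher in the null library, but only the dimmer one by more than 1.5-fold.

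The desmogleins are the other cadherin family. Dsg1a encodes a form of desmoglein 1, the main desmoglein of the upper epidermis. Its single probe set, 1458000_at, was at 419 and 189, 2.19-fold lower (log2 difference -1.13). Mouse desmoglein 1 is encoded by several close copies, so signal shared between Dsg1a and its copies is possible and was not tested. The copy Dsg1b was below the median on both arrays and so not measured, at 88.6 and 40.7. The null value is under the floor, which makes it at least 1.69-fold lower. Dsg1a stood just above the null array's median, where differences scatter most.

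Dsg2, the desmoglein that simple epithelia and heart muscle share with basal cells, had 6 probe sets that did not give 1 direction. The brightest, 1439476_at, was at 948 and 715 (-0.39), and 1449740_s_at was at 498 and 487 (-0.013). The next, 1449741_at, was at 279 and 234 (-0.23), and 1425619_s_at was at 129 and 216 (0.76). The mean over these 4 measured probe sets was 0.033 ± 0.51 (SD over probe sets, which share their RNA). The remaining probe sets were dim, with 1460380_at at 98.6 and 100.2, and 1426153_a_at under the floor on both arrays. Of the 4 measured, 1425619_s_at counted as measured only through the null array, so it is higher there by selection. The brighter ones were all below 0, though 1449740_s_at barely. Because the 6 probe sets disagree, no direction is given for Dsg2.

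**Figure D2:**
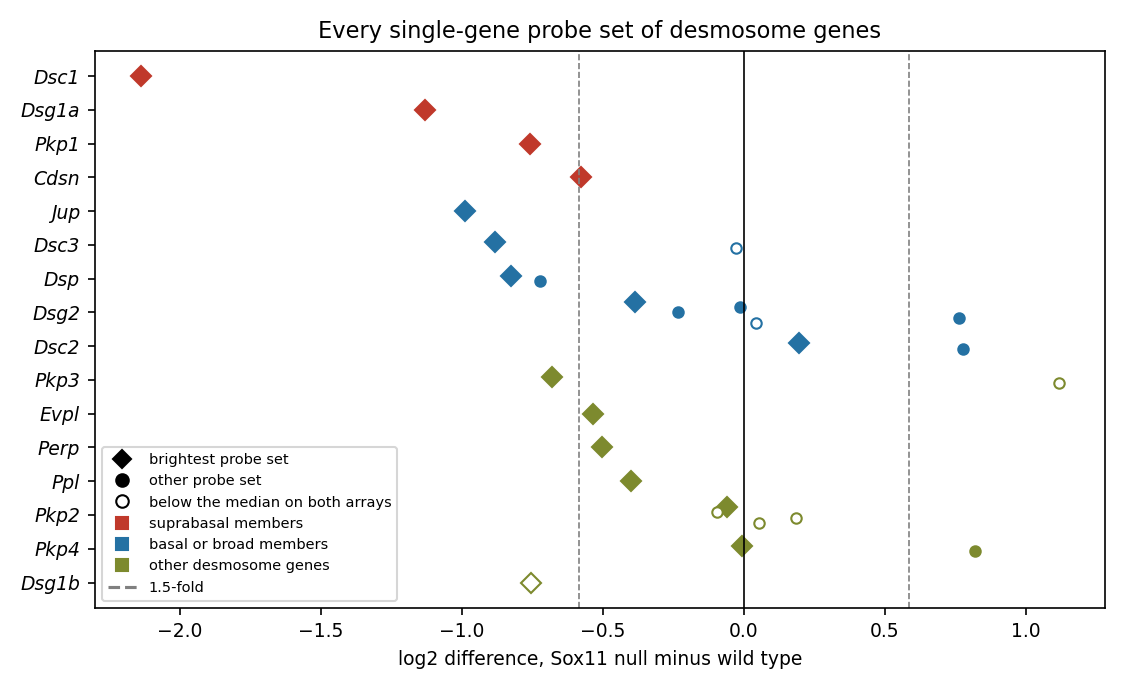
Log2 difference (Sox11 null minus wild type) of every single-gene probe set of the members and of other desmosome genes; diamonds mark the brightest probe set of a gene, open symbols probe sets below the median on both arrays, and dashed lines 1.5-fold. Probe sets under the floor on both arrays are not drawn. Dsg2 spreads from -0.39 to 0.76, while both drawn Dsp probe sets lie at -0.83 and -0.72.

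The 3 plaque members, which join the cadherins to keratin, were all at least 1.5-fold lower. Dsp, the desmoplakin gene found in all desmosomes, was at 6002 and 3338 with 1435494_s_at, which is 1.77-fold lower (-0.83). A second probe set, 1435493_at, gave 5524 and 3300 (-0.72). These 2 probe sets had a mean difference of -0.78 ± 0.073 (SD over probe sets), the closest pair among the members with more than 1 measured probe set. The third, 1427610_at, was under the floor on both arrays (15.8 and 21.3).

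Jup encodes plakoglobin, a relative of beta-catenin that sits in desmosomes and in adherens junctions. Its single probe set, 1426873_s_at, was at 894 and 444, 1.98-fold lower (-0.99). Pkp1, the plakophilin of the suprabasal layers, was at 2062 and 1203 with 1449586_at, 1.69-fold lower (-0.76). The suffix _s_at marks probe sets that can detect several transcripts, so the Jup value rests on such a set alone.

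Cdsn, which encodes the extracellular protein of cornifying cells, lay just inside the 1.5-fold line. Its probe set 1435191_at was at 449 and 297, 1.49-fold lower (-0.58). It passed 1.5-fold with no centring, with quantile normalization or with a loess trend removed, and the count of 6 members then became 7. It also passed that line with the mean over all probe sets and without the _s_at and _x_at types.

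Promoter sequence was available for 3 of the members that were lower together, and these are shown because they share a direction from different chromosomes. RefSeq (GRCm38.p6) gave the bases before the gene, each printed in the direction of transcription. The stretches of Dsp and Cdsn end at the start site, and that of Jup ends short of its start site in the promoter table, at the outer edge of the RefSeq gene. Capitals mark matches to the motifs searched.

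Dsp, chr13:38151044-38151293, plus strand: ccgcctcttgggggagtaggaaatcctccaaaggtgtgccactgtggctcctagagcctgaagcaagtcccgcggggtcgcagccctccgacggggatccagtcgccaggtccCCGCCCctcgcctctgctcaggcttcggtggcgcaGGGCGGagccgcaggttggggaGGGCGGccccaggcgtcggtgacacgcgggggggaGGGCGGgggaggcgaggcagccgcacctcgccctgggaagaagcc
Jup, chr11:100397840-100398040, minus strand: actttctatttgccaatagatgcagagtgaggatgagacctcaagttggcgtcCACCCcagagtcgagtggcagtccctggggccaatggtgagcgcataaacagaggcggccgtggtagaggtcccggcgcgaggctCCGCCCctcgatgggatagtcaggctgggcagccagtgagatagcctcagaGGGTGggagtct
Cdsn, chr17:35542851-35543100, plus strand: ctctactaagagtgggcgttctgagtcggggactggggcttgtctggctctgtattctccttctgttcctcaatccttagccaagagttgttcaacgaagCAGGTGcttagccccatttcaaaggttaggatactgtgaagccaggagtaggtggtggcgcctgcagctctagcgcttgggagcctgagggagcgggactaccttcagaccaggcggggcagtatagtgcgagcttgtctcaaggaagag

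The promoters of these 3 genes had no searched motif in common. Over the 250 bases before each start, Dsp had 4 matches to the GC box GGGCGG, read on both strands, Jup had 2, of which 1 lies in the printed stretch, and Cdsn had 0, and 32.7% of all 32851 promoters of that length held it. The Klf-type letters CACCC matched 2 times in Jup and 0 times in Dsp (52.0% of all promoters). The E-box CANNTG matched 1 time at the printed start of Cdsn and in neither Dsp nor Jup (66.2%). The AP-1 letters TGAGTCA (4.46%), the Sox letters AACAAT (9.42%), the Grhl letters ACCGGTT (0.831%) and the TATA letters TATAAA (12.4%) matched in none of these 3 windows, which says only that these letters are not there. Base composition differed, with G and C making up 72.4% for Dsp, 62.0% for Jup and 55.2% for Cdsn, against a median of 52.4% over all promoters. Cdsn has a second RefSeq start inside the gene, which is not printed, with 1 match to CACCC and 3 to CANNTG.

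**Figure D3:**
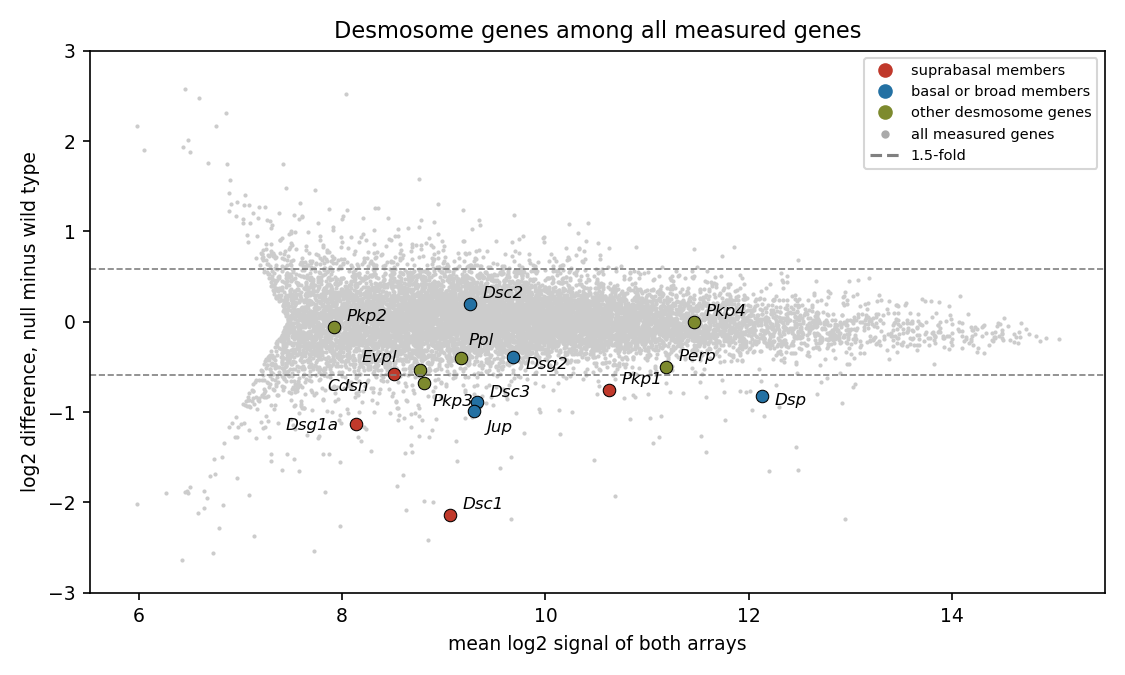
Log2 difference (null minus wild type) against mean log2 signal for the 12390 measured genes (grey; 6 lie outside the plotted range), with members and other desmosome genes coloured. Dsc1 sits at -2.14, apart from the grey cloud at its level, and Dsc2 (0.20) lies above 0.

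Low signals scatter more on these arrays, so each member was set beside genes of its own level. Measured genes were divided by level into 3 groups of 4130. In the dimmest group 95% of differences lay between -0.94 and 0.82, in the middle group between -0.49 and 0.57, and in the brightest group between -0.46 and 0.45. Dsg1a (dimmest), Dsc1, Dsc3 and Jup (middle) and Dsp and Pkp1 (brightest) were below the range of their group. Cdsn, Dsg2 and Dsc2 were within theirs. In the brightest group 1.38% of genes were 1.5-fold lower, against 6.80% in the dimmest.

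The suprabasal and the basal or broad members overlapped. The 4 suprabasal members ran from -2.14 (Dsc1) to -0.58 (Cdsn) with a median of -0.94, and 3 of 4 were 1.5-fold lower. The 5 basal or broad members with values ran from -0.99 (Jup) to 0.20 (Dsc2) with a median of -0.83, and 3 of 5 were 1.5-fold lower. The medians differed by -0.12. This difference depended on the processing, at -0.62 with the filter at the 75th percentile, -0.39 with the mean over all probe sets and -0.39 without _s_at and _x_at probe sets. Without Dsc1 the suprabasal median was -0.76 and the difference between the medians 0.069, with the sign turned. By their brightest probe sets Jup, Dsc3 and Dsp were lower than Pkp1 and Cdsn. With the mean over all probe sets, however, Dsc3 (-0.49) and Dsp (-0.40) were above Pkp1 (-0.79) and Cdsn (-0.61), and without _s_at and _x_at probe sets Dsp (-0.74) was above Pkp1 (-0.77) and Jup had no value.

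Another grouping, made after the values were seen, went by the kind of epithelium, and it left out Dsp, Jup and Cdsn and took in Pkp2 and Pkp3. Of isoforms typical of stratified epithelia, Dsc1, Dsc3, Dsg1a, Pkp1 and Pkp3 were measured. By their brightest probe sets 5 of 5 were at least 1.5-fold lower, against 3.24% of all measured genes. Dsg1a and Pkp3 belong to the dimmest group by level, where that share was 6.80%. Pkp3 (-0.68) lay within the 95% range of that group (-0.94 to 0.82). Of isoforms that simple epithelia and heart also use, Dsc2, Dsg2 and Pkp2, 0 of 3 were 1.5-fold lower or higher by their brightest probe sets. The group medians were -0.88 and -0.059. Other probe sets were beyond 1.5-fold higher in Dsc2 (0.78), Dsg2 (0.76) and, though dim, Pkp3 (1.12). That of Dsg2 counted as measured only through the null array. The left-out Dsp (-0.83) and Jup (-0.99), which heart cells also use, were 1.5-fold lower. Since the values led to this grouping, it supports nothing beyond these values.

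Neighbouring cadherin genes did not all share a direction, with Dsc2 alone above 0 by brightest probe sets. In the RefSeq order of GRCm38.p6 the 9 desmosomal cadherin genes form 1 cluster on chromosome 18. Of these, 6 had a probe set, and all but the dim Dsg1b were measured. Along the chromosome the order is Dsc3 (-0.88), Dsc2 (0.20), Dsc1 (-2.14), then Dsg1a (-1.13), and at the far end Dsg2 (-0.39). The probe sets of Dsg2 gave no single direction. Dsc2 thus lies between the Dsc genes that were lower. The next named neighbour with probe sets, Ttr, the transthyretin gene of the choroid plexus, was at 21816 and 17539 (-0.29). The members elsewhere, Pkp1 on chromosome 1, Jup on 11, Dsp on 13 and Cdsn on 17, were lower by 0.58 to 0.99 on the log2 scale.

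Other desmosome genes had a smaller median difference, also below 0, by their brightest probe sets. Of 9 listed, 6 were measured. Their median was -0.45, 1 gene was 1.5-fold lower and 0 were 1.5-fold higher. Pkp3, a plakophilin found in most layers of stratified epithelia, was the 1.5-fold lower gene, at 570.4 and 351 (-0.68), although a dim second probe set gave 53.4 and 114 (1.12). Perp, a membrane protein of desmosomes in stratified epithelia, was at 2785 and 1937 (-0.50). The plakins envoplakin and periplakin, which tie desmosomes to the cornified envelope, were at 526 and 358 (Evpl, -0.53) and 664 and 496 (Ppl, -0.40). Pkp2, the plakophilin of heart and simple epithelia, was at 249 and 236 (-0.059). Pkp4, which is also found at other junctions and in brain, was at 2835 and 2786 (-0.0052), with 0.82 by another probe set. Pkp3, Evpl, Ppl, Pkp2 and Pkp4 lay within the 95% range of their group by level. Perp was below that of the brightest group.

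Genes that cut or protect corneodesmosomes included 2 with large differences. Klk5, a protease that cleaves corneodesmosin and Dsg1, was at 264 and 69.3, 3.76-fold lower. Spink5, the inhibitor that restrains it, was at 265 and 124, 2.11-fold lower. Both counted as measured only through the wild-type array, since their null signals were under the null array's median of 177. Genes that enter in this way are lower in the null library by selection. The list median was -0.37 over 7 measured genes, of which these 2 were 1.5-fold lower and 0 were 1.5-fold higher. Klk7, which also cleaves corneodesmosin, was at -0.37, and the lysosomal protease gene Ctsl at 0.19 was the highest.

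Among the keratins that desmosomes anchor, Krt1 and Krt10 of the differentiating layers were more than 2-fold lower, and the 3 basal keratins were within 1.5-fold. Krt10 was at 10189 and 3229 (-1.64) and its partner Krt1 at 9172 and 3465 (-1.38), while Krt77 was at -0.20, so 2 of 3 measured suprabasal keratins were 1.5-fold lower, with a median of -1.38. Krt2 was under the floor on both arrays. The summed signal of this list of 4 was 19579 and 6880, so that 35.1% of the wild-type sum was left. The 3 basal keratins were all within 1.5-fold (median 0.11), from -0.39 for Krt14 to 0.19 for Krt15, and their summed signal was 10944 and 10901. All 4 keratins of simple epithelia were within 1.5-fold as well (median 0.19), from -0.0038 for Krt8 to 0.39 for Krt7. Of 5 measured oral keratins, Krt76 (-1.71) and Krt84 (-0.77) were 1.5-fold lower and the median was -0.52, with Krt13 at 0.023. Krt76 (190 and 57.3) counted as measured only through the wild-type array. Other measured probe sets had a mean of -0.46 for Krt13 and 0.20 for Krt6a. The part of keratinocyte or gland content in the desmosomal differences was not tested.

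Other genes of keratinised cells had negative differences too. In the cornified envelope list 7 of 10 measured genes were 1.5-fold lower, with a median of -0.91, and none was above 0. Hrnr (-2.00), Flg (-1.93), Rptn (-1.54) and Ivl (-1.47) were beyond 2-fold and Sprr1a (-0.43) was the highest. In the inner root sheath list, a layer of the hair follicle that also keratinises, 6 of 6 were 1.5-fold lower with a median of -1.62. Krt27 was at least 5.91-fold lower (310.4 in wild type, under the floor in null), Krt25 was at -2.09, Tchh at -1.98, Krt28 at -1.27, Krt73 at -1.17 and Krt71 at -0.67. Krt27, Krt28, Ivl and Tgm1 (197 and 106) counted as measured only through the wild-type array. Values of these lists were known when the members were chosen, so they are no independent support for the desmosomal values.

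**Figure D4:**
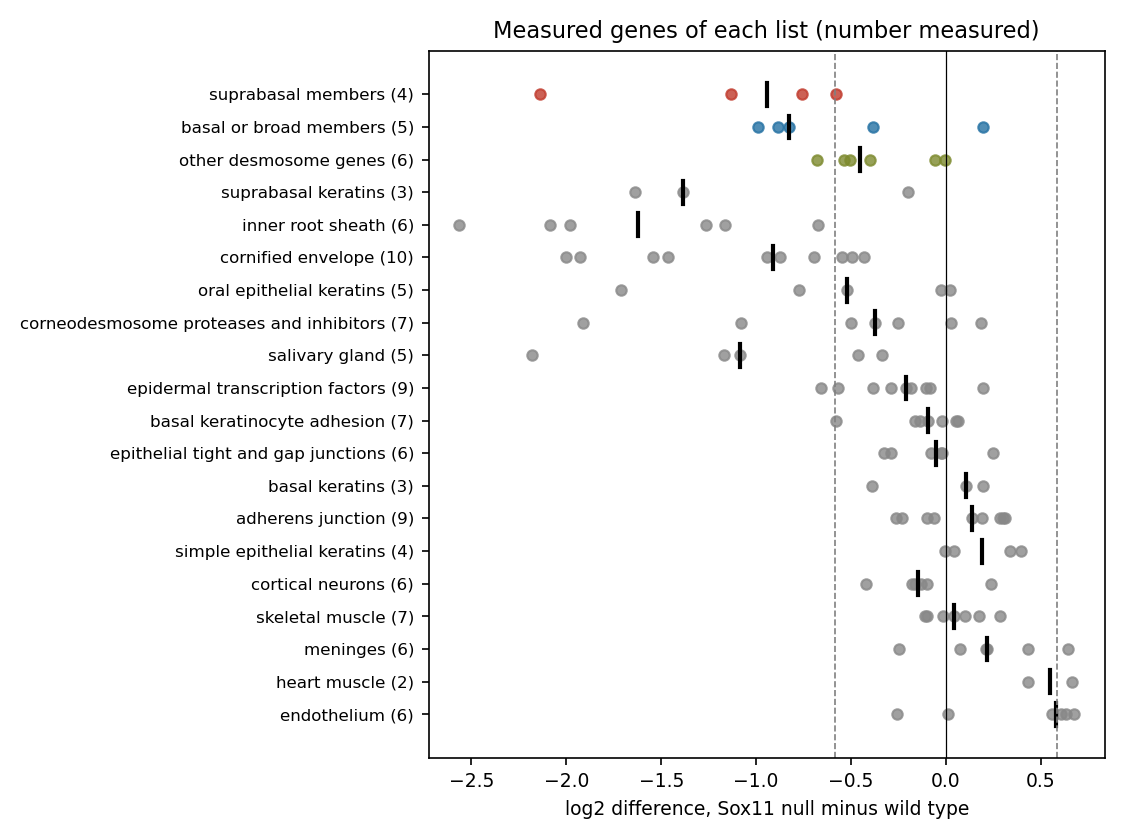
Log2 difference (Sox11 null minus wild type) of the measured genes of each list (points; number measured in brackets), with the list median as a black bar and dashed lines at 1.5-fold. The desmosomal members, the keratinised lists and the salivary gland list (median -1.09) lie mostly left of 0, whereas the adherens junction list (median 0.14) straddles 0.

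Genes of other junctions found in epithelia were within 1.5-fold by their brightest probe sets. How much of their signal came from epithelial cells was not tested. In adherens junctions, which share Jup with desmosomes, 9 of 9 measured genes were within 1.5-fold, with a median of 0.14. Cdh1, the epithelial E-cadherin, was the lowest at 3220 and 2643 (-0.26) and Ctnnd1 the highest (0.31). Other measured probe sets of this list reached beyond 1.5-fold higher, with means of 0.71 for Ctnnb1 and 0.94 for Vcl. Tight and gap junction genes were 6 of 6 within 1.5-fold (median -0.052), from Gjb2 (-0.33) to Ocln (0.25). Genes by which basal keratinocytes hold to the basement membrane were 7 of 7 within it (median -0.094), from Col17a1 (-0.58) to Itga6 (0.065). Whether desmosomal genes differ from these junctions cannot be tested with 1 array per genotype.

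Transcription factors of the epidermis were mostly within 1.5-fold. Of 9 measured, Grhl1, a factor known to control Dsg1 genes, was 1.5-fold lower at 441 and 275 (-0.66). None was 1.5-fold higher, and the median was -0.21. Grhl1 belonged to the dimmest group by level, and its difference lay within that group's 95% range (-0.94 to 0.82). A link to Dsg1a was not tested. Grhl3 (194 and 129) and Ovol1 (207 and 156) counted as measured only through the wild-type array, so they are lower by selection. Trp63, the factor that maintains stratified epithelia, was at 802 and 746 (-0.083), and Cebpa (0.19) was the highest.

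Markers of other tissues gave mixed values. Heart muscle, whose cells are joined by Dsp, Jup, Dsg2, Dsc2 and Pkp2, had 2 of 7 genes measured, Myl2 (0.67) and Tnnt2 (0.43), both also active in embryonic skeletal muscle. Of its more specific markers, Myl7 (4.91 and 5.46), Myh6 (45.2 and 31.8) and Tnni3 (8.15 and 47.0) were under the floor on both arrays, while Nppa (64.8 and 99.0, 0.63) and Nkx2-5 (92.1 and 108, 0.25) were above the floor but below the median on both. Endothelium, which uses Jup at its adherens junctions, had 3 of 6 genes 1.5-fold higher and none lower (median 0.58), from Cldn5 (-0.26) to Tie1 (0.68). Meningeal genes, of a tissue whose arachnoid layer forms desmosomes, had 1 of 6 higher (Foxc2, 0.64), a median of 0.21 and Aldh1a2 lowest at -0.25. Salivary gland genes were 3 of 5 lower (median -1.09), with Dcpp3 at -2.18, Dcpp1 at -1.17, Pip at -1.09 and Bpifa2 highest at -0.34. Dcpp1 (178.7 and 78.4) counted as measured only through the wild-type array. The lists of cortical neurons (median -0.15, Dcx -0.42 to Tubb3 0.24) and skeletal muscle (0.041, Mylpf -0.11 to Myh3 0.29) had 0 genes beyond 1.5-fold by brightest probe sets. Other measured probe sets of the neuron list had means of -0.847 for Neurod2 and 0.425 for Dcx. The signals cannot be assigned to a tissue from these arrays.

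Processing choices moved some members more than others. Dsc1 stayed between -2.19 and -2.13 in the settings that gave it a value, Dsg1a between -1.17 and -1.13 and Pkp1 between -0.79 and -0.75. When every probe set of a gene was averaged, dim ones included, Dsp was at -0.40, Dsc3 at -0.49 and Dsg2 at 0.42, and Dsc1 no longer counted as measured. The averages include probe sets under the floor, such as the dim one of Dsp, whose values have no order.

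**Figure D5:**
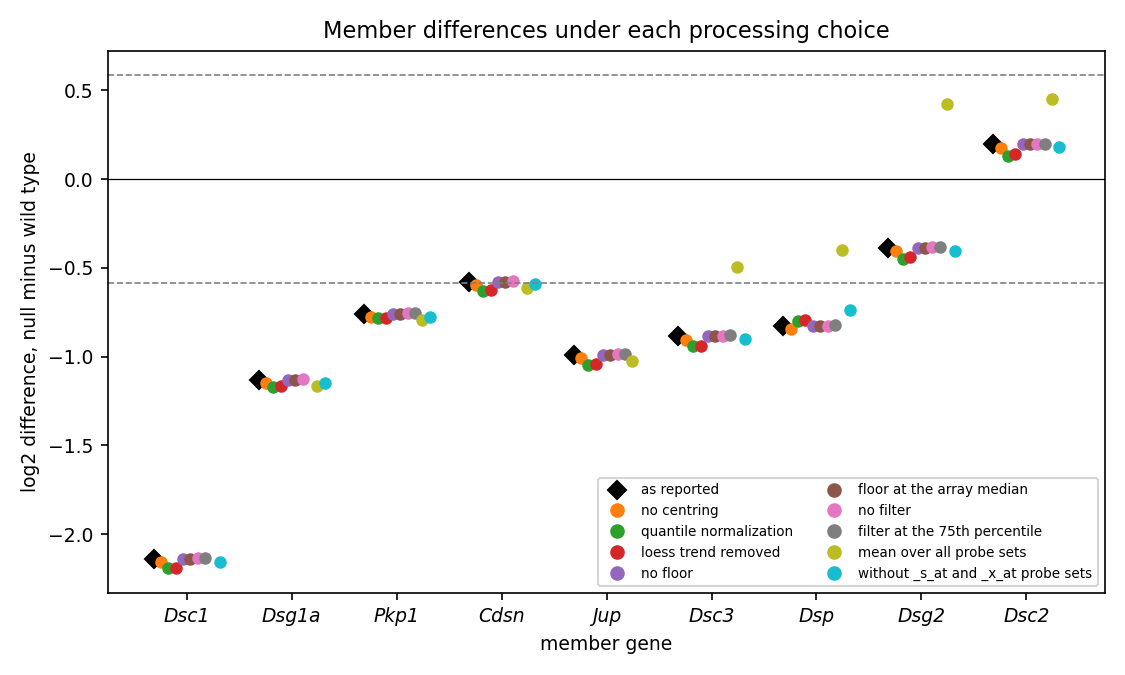
Log2 difference (null minus wild type) of each member as reported (black diamond) and under each alternative processing (coloured points), with dashed lines at 1.5-fold. Points of a member lie close together except those for the mean over all probe sets in Dsc3 (-0.49), Dsp (-0.40), Dsg2 (0.42) and Dsc2 (0.45).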

How the data were processed

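Each of the 2 arrays measured 1 embryo. The authors deposited 1 linear signal intensity per probe set and array, made with Affymetrix Expression Console per the submitters' processing notes. Neither the summary algorithm nor the genome build is stated there. Both arrays had the same trimmed mean (500.002), as scaling by 1 factor gives. After 64 control probe sets were left out, probe sets naming 1 gene were used, with symbols updated through RefSeq (GRCm38.p6). A gene was represented by its brightest probe set on average (log2 scale). The null array was shifted by 0.020 on the log2 scale to a median difference of 0 over measured genes, and signals under the 25th percentile were raised to it. No test was possible with 1 array per genotype, and the number of arrays limits the precision. Sizes of 1.5-fold and 2-fold were counted instead. The code (Python 3.11.15, numpy 2.4.6, pandas 2.3.3, statsmodels 0.14.6 for loess) was tested on simulated data.

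The members, lists and motifs were chosen with earlier results of these data known, and the GC box was added after the promoters were read. Named genes were all members, the measured genes of the desmosome list, and of each other list its lowest and highest gene and those beyond 2-fold. Some others (Klk7, Krt2, Krt6a, Krt84, Tgm1, Trp63, Grhl3, Ovol1, Ctnnb1, Vcl, Neurod2, Xist and the dim heart genes) were named after their values were seen. Alternatives were other centrings, floors, filters and probe set choices, and leaving out Dsc1.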

Additional observations from a re-analysis of the deposited data

How the results depend on the processing

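No member was 1.5-fold higher under any of the 10 alternatives run, and between 4 and 7 members were 1.5-fold lower, with 4 when all probe sets were averaged. With the filter at the 75th percentile Dsg1a and Cdsn were left out, and the suprabasal median was -1.44 and its difference from the basal or broad median -0.62. With all probe sets averaged the basal or broad median was -0.40 and Pkp3 turned to 0.18. Without _s_at and _x_at probe sets Jup had no value. Counts over all genes moved as well. The 401 lower and 380 higher genes became 266 and 274 when signals were floored at the median, 810 and 722 with no filter, and 139 and 134 with the filter at the 75th percentile. No replicate could be left out with 1 array per genotype. No paired analysis was possible because the groups share fewer than 2 replicate numbers.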
